A study of Mus musculus with 52 samples.

Results

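Inhibitory interneurons of the mouse frontal cortex were followed through 9 genes: the GABA synthesis genes Gad1 and Gad2, the vesicular GABA transporter gene Slc32a1, the calcium-binding protein gene Pvalb, and the neuropeptide genes Sst, Vip, Npy, Cck and Crh. They were taken by symbol from a table of 15692 genes, all 9 were found, and all 9 were among the 15195 genes that passed the low-count filter. RNA sequencing had been done on 52 libraries of APP/PS1ΔE9 mice, which carry human amyloid precursor protein and presenilin transgenes and form plaques, and which are homozygous for targeted replacement of mouse Apoe by human APOE4 (called APP/E4) or human APOE3 (APP/E3). The high-fat diet (HFD) held 40% of its calories as fat, provided by corn oil and milk fat, with 42.6% as carbohydrate and 16.8% as protein, and the normal diet (ND) was a Prolab Isopro laboratory chow. Mice started on a diet when 3.5 months old on average, ate it for 3 months, and were tested for behaviour when 14.7 months old on average. The groups were APP/E4 HFD females (n = 7), APP/E4 ND females (7), APP/E3 HFD females (8), APP/E3 ND females (7), APP/E4 HFD males (5), APP/E4 ND males (6), APP/E3 HFD males (6) and APP/E3 ND males (6). Every group carried the transgenes and a human APOE allele, so no comparison with transgene-free animals or mouse Apoe was made, and a table of mouse genes does not check the APOE labels. The promoter of the transgenes is not named in the labels, and the age of each animal was not used. Each library has a title number of its own, and p-values measure the spread between these samples.

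GABA is made from glutamate by the decarboxylases that Gad1 (GAD67) and Gad2 (GAD65) encode, and the transporter encoded by Slc32a1 (VGAT) loads it into synaptic vesicles. In the cortex most interneurons belong to classes marked by parvalbumin, somatostatin or vasoactive intestinal peptide: Pvalb cells target the soma and axon start of pyramidal neurons, Sst cells their dendrites, and Vip cells mainly other interneurons. Npy is found in part of the Sst cells and in neurogliaform cells, while Cck and Crh are not confined to interneurons, since cortical pyramidal cells also make Cck. Gad1, Gad2 and Slc32a1 are shared by all GABA neurons, including the projection neurons of the striatum and the granule cells of the olfactory bulb. In bulk tissue, fewer cells of a type and less RNA per cell cannot be told apart.

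Library totals ran between 5.34 M and 13.1 M counts (M for mega), apart from 39.4 M in 1 library, APP/E3 ND male 5. By reads of 311 pseudogenes they fell into 3 sets, called read classes here: class 1 with 33 libraries of both sexes, class 2 with 11 females and class 3 with 8 males. Class 2 held 2 of the 7 APP/E4 HFD, 2 of the 7 APP/E4 ND, 5 of the 8 APP/E3 HFD and 2 of the 7 APP/E3 ND females. The excitatory cortical marker Slc17a7 was between 972 and 1999 CPM (counts per M of library counts, with library sizes corrected by TMM for composition) in all libraries, which fits the labelled tissue. Markers of neighbouring tissue varied far more. The summed level of 18 striatal genes, called the striatal score, ran between 644 and 4552 CPM, and Drd2, the D2 dopamine receptor gene of striatal projection neurons, between 0.876 and 64.4 CPM. The summed level of 11 olfactory genes, the olfactory score, ran between 28.9 and 1314 CPM. Of the striatal genes, Isl1 was at 0 in 4 libraries, Ido1 in 2 and the other 16 in none. Of the olfactory genes, Omp, the marker of mature olfactory neurons, was at 0 in 1 library. Eomes was at 0 in 3 libraries, Slc6a3 in 4, Tbx21 in 6, Ms4a15 in 11 and Barhl2 in 12, and the remaining olfactory genes in none.

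Each of the 9 genes was well above the level of 3 counts, which lay between 0.0754 and 0.579 CPM by library, except that Crh had as few as 15 counts. Per kilobase of merged GENCODE exons, Sst was highest with a median of 181 CPM per kb. It was followed by Cck with 127, Npy with 101, Gad1 with 68.2, Gad2 with 59.1, Slc32a1 with 39.3, Pvalb with 23.7, Vip with 12.3 and Crh with 3.00 CPM per kb. The ranges of neighbours in this order overlapped in all 8 cases. Gad2 nevertheless lay above Slc32a1, and Vip above Crh, in 52 of 52 libraries, whereas Gad1 lay above Gad2, and Slc32a1 above Pvalb, in 40 of 52.

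The genes differed in how much they varied between libraries. Pvalb varied most, with a coefficient of variation of 47.2% and levels between 12.1 and 81.4 CPM. Crh, the corticotropin-releasing hormone gene, followed with 37.2% and levels between 1.90 and 10.5 CPM, where counting alone would give 16.3% at its median of 37.5 counts. Gad2, Gad1 and Slc32a1 had coefficients of variation of 34.5%, 33.4% and 32.0%, Vip 29.2% and Cck 28.8%. Npy with 19.2% and Sst with 17.1% varied least, and Sst lay between 66.0 and 186 CPM. For the 8 genes other than Crh, counting error at the median count was at most 6.67%.

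**Figure D1:**
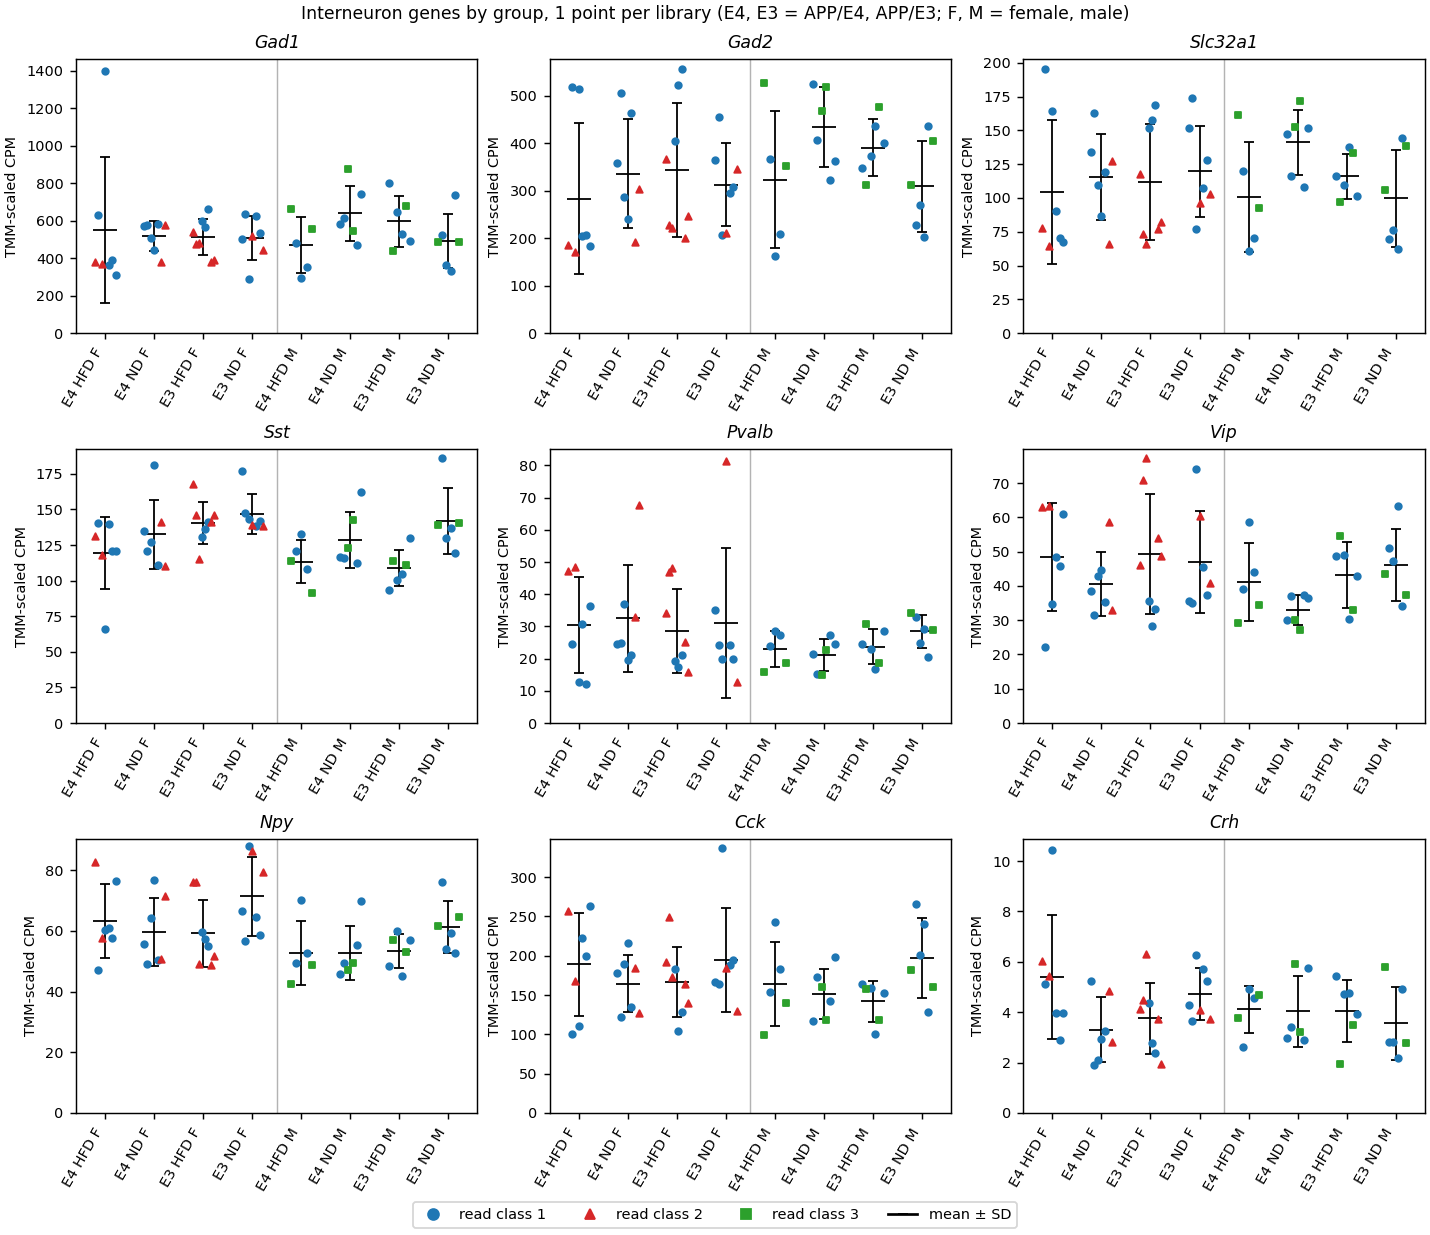
TMM-scaled CPM (y axis, linear and starting at 0) of each gene in the 8 groups (x axis), with 1 point per library coloured by read class and bars for the mean ± SD of each group. Groups overlap for every gene, and single libraries stand apart, such as Gad1 at 1401 CPM in an APP/E4 HFD female and Pvalb at 81.4 CPM in an APP/E3 ND female.

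Upstream sequence is shown for 5 of the genes because of how their levels moved across libraries, as described next. Gad2 moved with Slc32a1 and Vip with Cck. Sst showed no slope on the striatal score, though it correlated with Cck at an r of 0.43. Each line gives the 120 bases before the transcription start, 5′ to 3′ on the gene's strand, from RefSeq on GRCm38.p6, which is not the build of the counts. The promoter table matched 8 of the 9 genes. Capitals mark TGACG or its longer forms TGACGTC and TGACGTCA, the core of the cAMP response element, searched on both strands in 250 bases before and 50 after the start.
Sst, chr16:23890845-23890964, minus strand: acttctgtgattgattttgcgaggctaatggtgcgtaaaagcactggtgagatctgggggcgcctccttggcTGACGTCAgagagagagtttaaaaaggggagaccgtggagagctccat
Vip, chr10:5639098-5639217, plus strand: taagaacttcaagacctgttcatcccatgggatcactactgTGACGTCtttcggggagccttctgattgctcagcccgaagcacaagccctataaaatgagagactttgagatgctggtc
Cck, chr9:121495695-121495814, minus strand: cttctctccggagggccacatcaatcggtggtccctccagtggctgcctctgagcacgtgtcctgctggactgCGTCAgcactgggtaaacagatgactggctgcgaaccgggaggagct
Gad2, chr2:22622207-22622326, plus strand: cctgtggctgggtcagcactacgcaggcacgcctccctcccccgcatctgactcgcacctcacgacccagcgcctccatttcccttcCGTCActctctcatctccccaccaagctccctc
Slc32a1, chr2:158610638-158610757, plus strand: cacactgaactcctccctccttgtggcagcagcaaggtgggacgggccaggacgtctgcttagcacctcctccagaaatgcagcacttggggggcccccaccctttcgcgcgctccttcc
The full element TGACGTCA began 48 bases before the start of Sst and reads the same on both strands, so its 2 matches to TGACG overlap. TGACGTC began 79 bases before the start of Vip. TGACG stood on the opposite strand in Cck, from 47 bases before the start, and in Gad2, from 33 bases before it. The windows of Gad1, Slc32a1, Npy and both starts of Pvalb held no TGACG. Of 32851 promoter windows of the same length, 20.8% hold TGACG on either strand, 3.21% TGACGTC and 1.79% TGACGTCA. The 4 genes with a match include genes that moved in opposite directions across libraries.

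The GABA genes followed the striatal score and the peptide genes Vip and Cck ran against it. Slc32a1 rose with the score by 0.48 ± 0.04 log2 units per log2 unit of the score (SE) and Gad2 by 0.50 ± 0.05, in an edgeR quasi-likelihood fit with the 8 group means (adjusted p = 1.1e-13 and 4.1e-11). Gad1 rose by 0.23 ± 0.07 (adjusted p = 0.0141). Vip fell by 0.40 ± 0.03 log2 units per log2 unit of the score and Cck by 0.33 ± 0.05 (adjusted p = 5.3e-14 and 9.9e-07). Pvalb (-0.20 ± 0.10, adjusted p = 0.160), Npy (-0.10 ± 0.04, 0.0546), Crh (-0.12 ± 0.08, 0.347) and Sst (-0.02 ± 0.04, 0.776) did not pass. Across all genes tested, 21.2% were called, 10.9% with a positive and 10.3% with a negative slope. The 5 calls held without any 1 of the 52 libraries, with slopes between 0.21 and 0.25 for Gad1 and between -0.42 and -0.38 for Vip, while Npy passed in 18 of the 52 fits and Pvalb in 1, without APP/E4 ND female 7. Within read class 1 alone the slopes were 0.49 for Slc32a1, 0.50 for Gad2, -0.41 for Vip, -0.46 for Cck and -0.21 for Npy, all called, whereas Gad1 (0.25 ± 0.12, adjusted p = 0.222) and Pvalb (-0.01 ± 0.10, 0.985) were not. In class 1, 10.9% of 15063 genes were called, 5.6% positive and 5.26% negative.

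**Figure D2:**
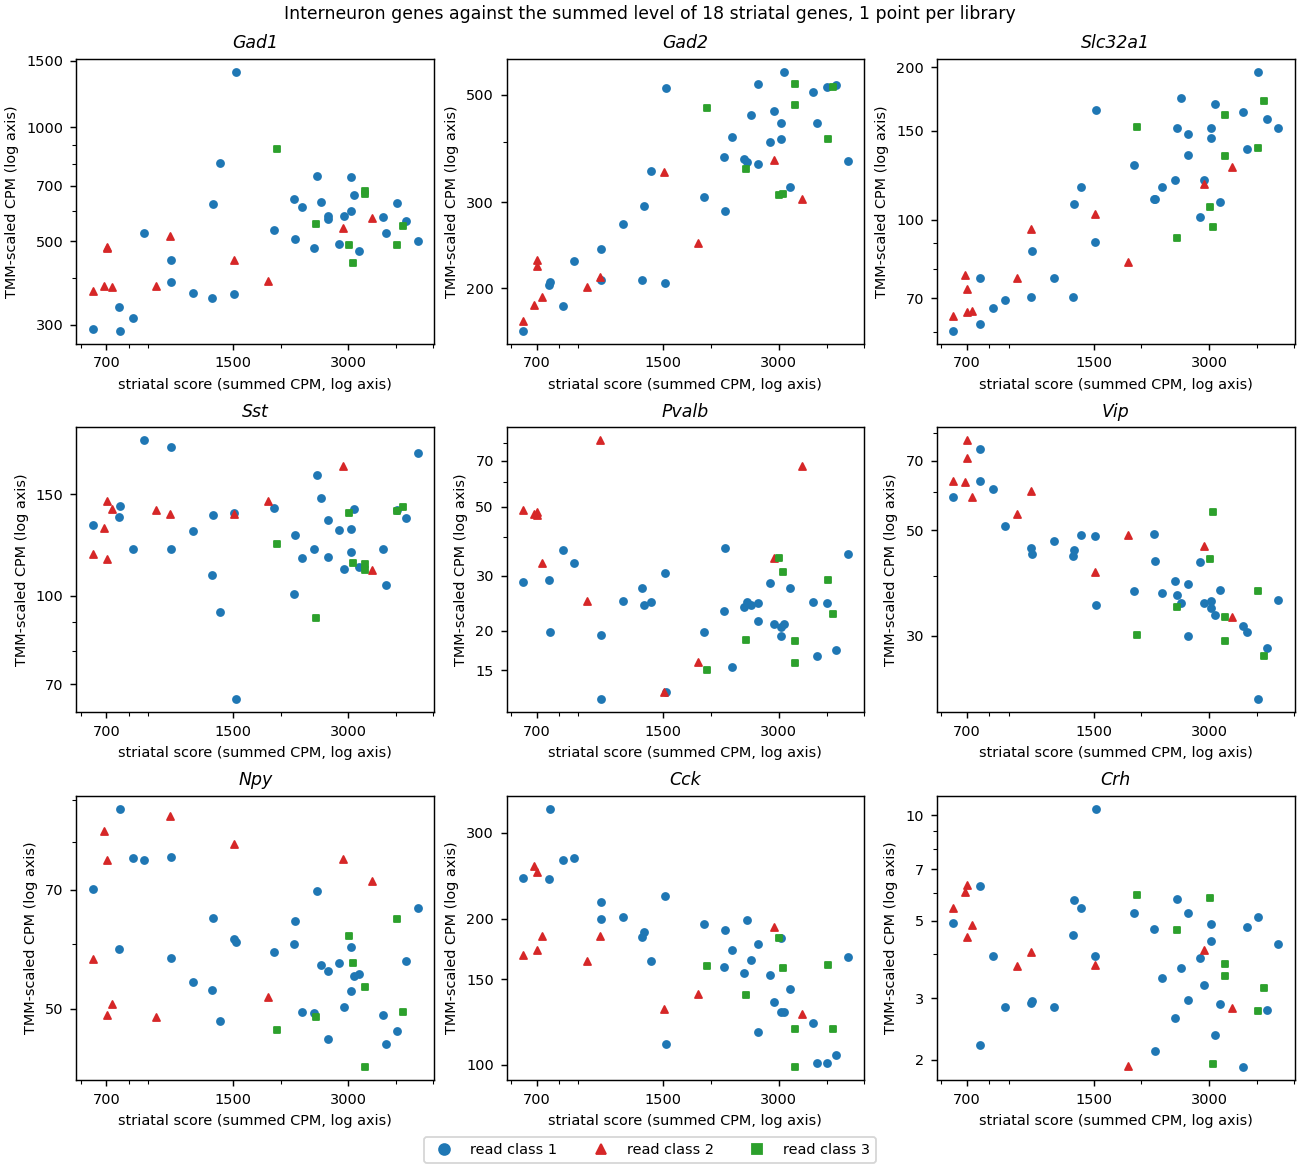
TMM-scaled CPM of each gene (y axis, log) against the striatal score, the summed CPM of 18 striatal genes (x axis, log), 1 point per library, coloured and shaped by read class. Gad2 and Slc32a1 climb along the score and Vip and Cck descend, while Sst shows no slope. Class 2 libraries, the red triangles, sit high for Pvalb.

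Plain correlations of log2 CPM over the 52 libraries, which leave the group means in, were taken as well. The striatal score correlated with Gad2 at a Pearson r of 0.85 (Spearman rho 0.81) and with Slc32a1 at 0.85 (rho 0.82), and leaving out the 2 libraries farthest from the median score gave 0.83 for both. With Vip r was -0.85 (rho -0.82) and with Cck -0.71 (rho -0.72), and -0.83 and -0.72 without those 2 libraries. Each of these 4 had a permutation p of 1e-05 for r and for rho, the smallest that 100000 permutations can give, and an adjusted p of 3.6e-05 over 18 relations. Gad1 correlated at 0.52 (rho 0.54, adjusted permutation p = 1.0e-04) and 0.46 without them. Npy, whose fitted slope did not pass, had an r of -0.40 (rho -0.33, adjusted permutation p = 0.0061 and 0.0273) and -0.40 without those 2 libraries. Pvalb had -0.28 (rho -0.27, adjusted p = 0.0558 and 0.0730), Crh -0.27 (rho -0.32, 0.0685 and 0.0306) and Sst -0.09. Because the read classes are separate sets of libraries, r was also taken within them. For Gad2 it was 0.85 in class 1, 0.84 in class 2 and 0.20 in class 3, and for Vip -0.86, -0.88 and -0.02. For Npy the sign turned, with -0.59 in class 1, 0.25 in class 2 and 0.35 in class 3. Class 3, with 8 males, had striatal scores between 1948 and 4167 CPM, a narrower range than the 645 to 4552 CPM of class 1. Gad1 in class 3 had an r of -0.56.

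Among the genes themselves, Gad2 and Slc32a1 were the closest pair (r = 0.92, rho = 0.90), followed by Vip with Cck (r = 0.77, rho = 0.76), Gad1 with Gad2 (r = 0.77, rho = 0.80) and Gad1 with Slc32a1 (r = 0.76, rho = 0.79). Vip ran against Slc32a1 (r = -0.87, rho = -0.87) and Gad2 (r = -0.86, rho = -0.87), and Cck against Gad2 (r = -0.77, rho = -0.78). Each of these 7 pairs had an adjusted permutation p of 3.6e-05 over 36 pairs, from the smallest p that 100000 permutations can give. Within class 1 the r of Gad2 with Slc32a1 was 0.92, that of Vip with Cck 0.88 and that of Vip with Slc32a1 -0.86. Without the 2 libraries farthest from the median of the first gene, these 3 correlations were 0.91, 0.79 and -0.86. Sst correlated with Npy at 0.43 (rho 0.44) and with Cck at 0.43 (rho 0.44), with adjusted permutation p = 0.0029 for both. Sst and Gad1 had an r of -0.38 (adjusted permutation p = 0.0121), but -0.15 without the 2 libraries farthest from the median of Gad1, so the relation rests on those libraries. Crh correlated with no other gene at an adjusted p under 0.05. The points share library and depth.

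**Figure D3:**
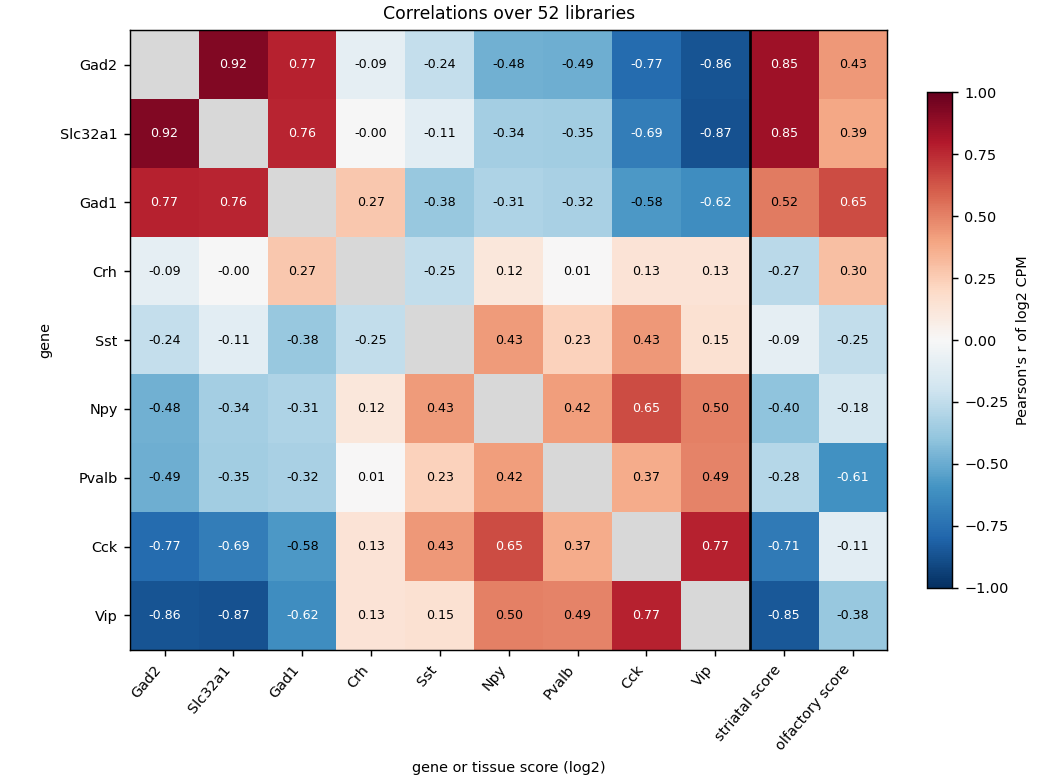
Pearson's r of log2 CPM over 52 libraries (colour, printed in each cell) for each pair of genes and, right of the black line, for each gene with the striatal and olfactory scores. Gad2, Slc32a1 and Gad1 form a positive block, Vip, Cck, Npy and Pvalb another, and the blocks are negative against each other, with -0.87 for Slc32a1 and Vip at the extreme.

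With the olfactory score, fitted beside the striatal score, Gad1 rose by 0.22 ± 0.03 log2 units per log2 unit, Gad2 by 0.13 ± 0.03, Slc32a1 by 0.11 ± 0.02 and Crh by 0.16 ± 0.05 (edgeR adjusted p at most 0.0193). Pvalb fell by 0.30 ± 0.05 and Vip by 0.08 ± 0.02 (adjusted p at most 0.0015), and Sst, Npy and Cck did not pass. Of all genes 20.7% were called, 10.8% positive and 9.81% negative. APP/E4 HFD female 4 had the highest olfactory score, 1314 CPM. The same library had the highest Gad1 (1401 CPM) and Crh (10.5 CPM) and the lowest Sst (66.0 CPM) of all 52, while its Slc32a1 (164 CPM) and Vip (34.8 CPM) lay inside the range of other libraries. Without it the olfactory slope of Crh was 0.11 and not called (edgeR adjusted p = 0.207), while it was called in the other 51 fits that each left out 1 library. The plain correlation of Crh with the olfactory score was 0.30 (adjusted permutation p = 0.0420), with a rho of 0.20 (0.189), and r was 0.12 without the 2 libraries farthest from the median score, so the relation rests on those libraries. The other 5 olfactory slopes were called without any 1 of the 52 libraries.

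Pvalb stood apart in read class 2. It was at 41.9 ± 20.7 CPM in the 11 class 2 females (SD), with a lowest value of 12.8, a median of 46.9 and a highest of 81.4 CPM, against 23.6 ± 7.23 CPM in the 18 class 1 females, which ran between 12.1 and 36.8 CPM with a median of 22.6. The 2 sets overlapped. The fitted difference of class 2 from class 1 was 0.94 ± 0.19 on the log2 scale (edgeR adjusted p = 2.4e-04), and 0.93 ± 0.22 beside the striatal score (0.0016). It lay between 0.74 and 1.08 and was called without any 1 of the 52 libraries. Vip was 0.49 ± 0.14 higher in class 2, and Gad2 fell by 0.68 ± 0.17 and Slc32a1 by 0.61 ± 0.16, all called (adjusted p at most 0.0085). None of these 3 was called beside the striatal score, where the differences were 0.11, -0.22 and -0.16. Class 2 had striatal scores with a median of 945 CPM, against 2265 CPM in class 1, and olfactory scores with a median of 43.0 CPM, against 137 CPM in class 1. Pvalb fell along the olfactory score, but its class difference was not fitted beside that score, nor its olfactory slope beside read class. The part of the olfactory score in the class difference of Pvalb was therefore not tested. Of all genes, 22.8% were called in class 2 against class 1, 11.5% higher and 11.3% lower, and beside the striatal score 20%, with 9.79% higher and 10.2% lower.

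The diet comparison asked whether the high-fat diet changed these genes. Averaged over genotype and sex, edgeR called 0 of the 9 genes, and 0 of all 15195 (0%). At an unadjusted p under 0.05 there was 1 of the 9, and DESeq2, which called 0.0128% of all genes, and voom also called 0 of the 9 with the same 1. That gene was Sst, the dendrite-targeting class's peptide. Unadjusted counts, here and below, were taken for the members only. The called shares of all genes rest on an adjusted p, so they are no background for those counts. In HFD mice Sst lay between 66.0 and 168 CPM with a median of 121 and a mean of 122 ± 21.3 CPM, against 111 to 186 CPM with a median of 138 and a mean of 138 ± 20.7 CPM in ND mice (SD, n = 26 each). Diets overlapped across most of this range. The fitted log2 difference was -0.19 ± 0.06 (edgeR adjusted p = 0.353), and it lay between -0.21 and -0.17 without any 1 library, with an adjusted p between 0.232 and 0.557. In the authors' deposited table, whose coefficients run as ND minus HFD, Sst had 0.18 with an unadjusted p of 0.0088. Striatal scores had a median of 2003 CPM in HFD and 2372 CPM in ND mice, and with that score as a covariate the Sst difference was -0.20 ± 0.06 (adjusted p = 0.288). Within class 1 it was -0.21 ± 0.09 (0.678).

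By group, Sst had its lowest medians in males on HFD. In APP/E4 HFD males it was at 114, 121, 133, 108 and 91.6 CPM, against 112 to 162 CPM with a median of 120 in APP/E4 ND males. In APP/E3 HFD males it ran between 93.7 and 130 CPM with a median of 108, against 119 to 186 CPM with a median of 138 in APP/E3 ND males. The lowest and highest values of both pairs overlapped. The APP/E3 male difference was -0.38 ± 0.12 (edgeR adjusted p = 0.279) and the APP/E4 male difference -0.19 ± 0.13 (0.994). Females had -0.15 ± 0.11 in APP/E4 (0.747), or -0.04 without APP/E4 HFD female 4, and -0.06 ± 0.11 in APP/E3 (adjusted p rounding to 1). The interaction of diet with sex was 0.18 ± 0.12 for Sst and did not pass (adjusted p = 0.713).

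The other 8 genes had averaged HFD differences between -0.13 for Slc32a1 and 0.14 for Vip, each with an SE of 0.07 to 0.17. In the 4 combinations of genotype and sex edgeR, DESeq2 and voom called 0 of 9 genes each. At an unadjusted p under 0.05 edgeR had 1 gene in APP/E4 females, 0 in APP/E4 males, 1 in APP/E3 females and 2 in APP/E3 males. The background of called genes was 0% in 3 of these comparisons and 0.0263% in APP/E3 females. In APP/E4 females the gene was Crh, with 2.91 to 10.5 CPM and a median of 5.11 on HFD, against 1.90 to 5.24 CPM and a median of 2.95 on ND. Its log2 difference was 0.71 ± 0.26 (edgeR adjusted p = 0.599), and 0.47 without APP/E4 HFD female 4. In APP/E3 females it was Npy (-0.27 ± 0.12, adjusted p rounding to 1) and in APP/E3 males Cck (-0.46 ± 0.23, 0.360) besides Sst.

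Whether diet acted differently by genotype was tested as an interaction, and edgeR called 0 of 9 genes and 0% of all genes, with DESeq2 and voom also at 0. The 3 genes at an unadjusted p under 0.05 were Cck (0.50 ± 0.22), Npy (0.27 ± 0.13) and Gad2 (-0.57 ± 0.28), with adjusted p of at least 0.471. The 0% of all genes is at an adjusted p and is no background for these 3. With the striatal score as a covariate the values were 0.11 ± 0.17, 0.15 ± 0.13 and -0.14 ± 0.17. Median striatal scores by group were 1030 CPM in APP/E4 HFD and 2645 CPM in APP/E4 ND females, and 2379 CPM in APP/E3 HFD and 1509 CPM in APP/E3 ND females. In males they were 2440 CPM in APP/E4 HFD and 2562 CPM in APP/E4 ND, and 2960 CPM in APP/E3 HFD and 2096 CPM in APP/E3 ND. Within class 1 the interaction values were 0.77 for Cck and -0.97 for Gad2, not called (adjusted p = 0.202 and 0.164). The interaction of diet with sex had 0 of 9 genes called or at an unadjusted p under 0.05 by edgeR, DESeq2 or voom, against 0%, 0.0191% and 0% of all genes called.

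**Figure D4:**
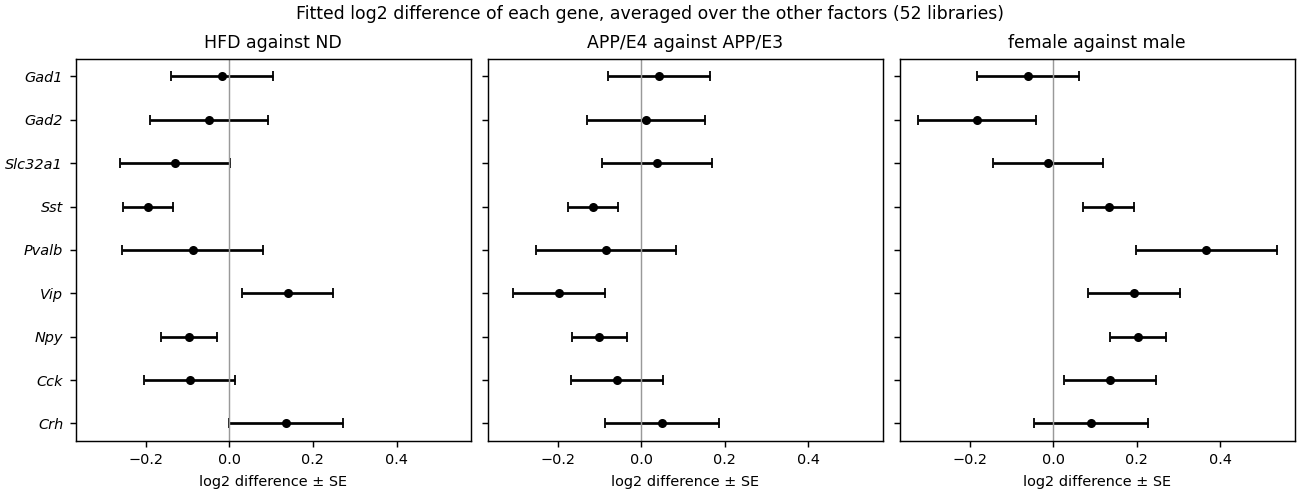
Fitted log2 difference (x axis, point) with its SE (bar) for each gene (y axis) between diets, genotypes and sexes, each averaged over the other factors in 52 libraries. No point is a called difference. Sst on HFD at -0.19 and Npy in females at 0.20 lie farthest from 0 in units of their SE.

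The genotype comparison asked whether these genes differed between plaque-bearing mice with human APOE4 and those with APOE3. Titles of all APP/E4 libraries begin with the letter E, and those of APP/E3 libraries with D or F. The APOE allele and anything else that goes with these letters therefore cannot be told apart, here and for the list genes below. Averaged over diet and sex, edgeR called 0 of the 9, against 6.79% of all genes (3.39% higher and 3.4% lower in APP/E4), and 0 had an unadjusted p under 0.05. DESeq2 and voom called 0 as well, voom with Sst at an unadjusted p under 0.05. The GABA genes were close to equal: Gad1 averaged 547 ± 227 CPM in APP/E4 and 525 ± 122 CPM in APP/E3, Gad2 343 ± 133 CPM in APP/E4 and 339 ± 103 CPM in APP/E3, and Slc32a1 116 ± 40.0 CPM in APP/E4 and 112 ± 33.3 CPM in APP/E3 (SD, n = 25 and 27). Their log2 differences were 0.04 ± 0.12, 0.01 ± 0.14 and 0.04 ± 0.13. Pvalb (-0.09 ± 0.17), Npy (-0.10 ± 0.07), Sst (-0.11 ± 0.06), Cck (-0.06 ± 0.11) and Crh (0.05 ± 0.14) did not pass either. The signs of Gad1 (-0.06) and Crh (-0.0098) turned without APP/E4 HFD female 4, and that of Pvalb (0.03) without APP/E3 ND female 4.

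Vip, the peptide of interneurons that target other interneurons, had the largest averaged genotype difference of the 9. It ran between 22.1 and 63.3 CPM in APP/E4 with a median of 37.4, against 28.3 to 77.2 CPM with a median of 45.4 in APP/E3, and the genotypes overlapped. Without the striatal score the log2 difference was -0.20 ± 0.11 (adjusted p = 0.296). With the score as a covariate it was -0.22 ± 0.05 (adjusted p = 0.0066), the single call among the 9, in a fit that called 8.99% of all genes. A single call among 9 is close to that share, so it does not set the 9 genes apart from other genes. At the mean score, Vip averaged 5.30 ± 0.17 log2 CPM in APP/E4 and 5.51 ± 0.21 log2 CPM in APP/E3 (SD). Before this adjustment the averages were 5.31 ± 0.41 in APP/E4 and 5.50 ± 0.39 in APP/E3. Over all 52 libraries the covariate thus narrowed the spread and left the difference. The difference lay between -0.23 and -0.19 and was called without any 1 of the 52 libraries (adjusted p between 0.0035 and 0.0137). It was also called with the olfactory score added (-0.21 ± 0.05, 0.0014, with 10.5% of all genes called) and with read class added (-0.21 ± 0.05, 0.0083, with 11.3%). Within class 1 alone, beside the score, it was not called (-0.11 ± 0.06, adjusted p = 0.319, where 4.29% of all genes were called). Across the 11 alternatives to the main fit, with and without the score, the difference ran between -0.22 and -0.04. Adjusted p in those alternatives ran between 0.0014 and 0.918, so its size depends on the libraries and terms used. By group and beside the score, the difference was -0.25 ± 0.10 in HFD females, -0.07 ± 0.10 in ND females, -0.33 ± 0.12 in HFD males and -0.22 ± 0.11 in ND males, none called (adjusted p at least 0.220). The interaction of diet with genotype beside the score was -0.15 ± 0.11 and did not pass (0.894). Median striatal scores were 2265 CPM in APP/E4 and 2160 CPM in APP/E3, and median olfactory scores 101 CPM in APP/E4 and 113 CPM in APP/E3.

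**Figure D5:**
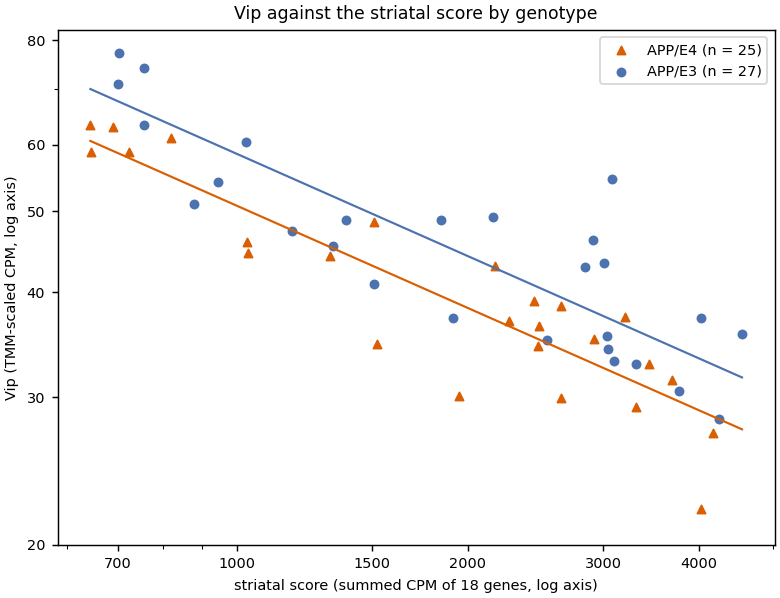
Vip in TMM-scaled CPM (y axis, log) against the striatal score (x axis, log), 1 point per library, for 25 APP/E4 and 27 APP/E3 mice. Lines have the common slope within groups of -0.41 and pass through each genotype's mean. The APP/E4 line lies below the APP/E3 line, and points of both genotypes lie on either side of both lines.

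In single combinations of diet and sex, edgeR, DESeq2 and voom called 0 of 9 genes between genotypes. Of all genes, 0.605% were called in HFD females (0.369% higher and 0.237% lower in APP/E4) and 0.961% in ND females (0.434% higher and 0.526% lower). In HFD males it was 0.224% (0.171% higher and 0.0526% lower) and in ND males 0.401% (0.191% higher and 0.211% lower). At an unadjusted p under 0.05 edgeR had Sst (-0.23 ± 0.11) and Crh (0.52 ± 0.25) in HFD females, Npy (-0.26 ± 0.13) in ND females, 0 genes in HFD males, and Vip (-0.48 ± 0.23) in ND males (adjusted p at least 0.309). Without APP/E4 HFD female 4 the values in HFD females were -0.13 for Sst and 0.28 for Crh. The interaction of genotype with sex had 0 of 9 called or at an unadjusted p under 0.05 by any of the 3 tools, against 0.00658% of all genes called.

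Females and males were compared to see whether sex went with these genes. Averaged over genotype and diet, edgeR called 0 of the 9, against 4.42% of all genes (2.91% higher and 1.51% lower in females). At an unadjusted p under 0.05 there were 3 of the 9, namely Npy, Sst and Pvalb. The share of all genes at that unadjusted threshold was not taken. Npy, the neuropeptide Y gene, ran between 46.9 and 88.0 CPM in 29 females with a median of 59.5, against 42.4 to 76.1 CPM with a median of 53.1 in 23 males. Its log2 difference was 0.20 ± 0.07 (edgeR adjusted p = 0.0672). DESeq2 called it (0.20 ± 0.07, adjusted p = 0.0493, with 5.42% of all genes called), voom called 0 of 9, and edgeR called it when any of 6 libraries was left out, APP/E4 HFD female 2, APP/E4 ND female 2, APP/E4 ND female 5, APP/E4 HFD male 3, APP/E4 ND male 6 or APP/E3 ND male 2 (adjusted p between 0.0237 and 0.0495). With read class as a term it was 0.11 ± 0.08 (0.565), within class 1 0.11 ± 0.08 (0.547), and with title style (sex letter or none) added to read class 0.0036 (0.993). Sst differed by 0.13 ± 0.06 (0.214) and Pvalb by 0.37 ± 0.17 (0.222). Pvalb averaged 30.5 ± 16.3 CPM over all females and 24.1 ± 5.67 CPM over all males. Within class 1 the 18 females averaged 23.6 ± 7.23 CPM and the 15 males 24.6 ± 4.75 CPM (SD), where its sign was the opposite (-0.10 ± 0.13). Gad2 and Vip also had the opposite sign within class 1, at 0.21 and -0.13, against -0.18 and 0.19 in all libraries. All 11 class 2 libraries are female and all 8 of class 3 male, so outside class 1 sex and class cannot be told apart. The 14 libraries whose titles lack a sex letter are all male too, and some of them are in class 1. With title style as a term, edgeR called 0.118% of all genes between sexes. Sex differences of the list genes given below were not taken with that term. Slc32a1 differed by -0.01 ± 0.13 in all libraries and by 0.34 ± 0.16 within class 1 (adjusted p = 0.291). Median striatal scores were 1524 CPM in females and 2479 CPM in males.

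Other genes of inhibitory neurons were described from 4 lists chosen with earlier results of these data known. Of 15 genes of GABA metabolism and transport, 1 was called between genotypes, where 6.79% of all genes were called, and none between sexes (4.42% of all genes) or diets (0%). Slc12a2, which encodes the chloride importer NKCC1, averaged 84.6 ± 13.1 CPM in APP/E4 and 70.7 ± 11.6 CPM in APP/E3 (0.25 ± 0.06, edgeR adjusted p = 0.0074), and within class 1 the difference was 0.17 (0.153). Of 8 oligodendrocyte markers, all 8 lay above 0 in APP/E4 with a median of 0.28, and Mag (0.38 ± 0.11, 0.0361) and Ermn (0.35 ± 0.11, 0.0480) were called. Their summed level ran between 2428 and 7317 CPM in APP/E4, against 1196 to 5354 CPM in APP/E3, and none of the 8 was at 0 in any library. Their part in the Slc12a2 difference was not tested. The median over the GABA list was 0.04, against -0.00011 over all genes. Of 55 other interneuron genes, 1 was called higher and 1 lower in APP/E4, against 3.39% higher and 3.4% lower of all genes. Cort, the somatostatin-related cortistatin gene, was at 3.77 ± 1.34 CPM in APP/E4 and 2.48 ± 1.04 CPM in APP/E3 (0.59 ± 0.15, 0.0099), and it was called within class 1 as well (0.82 ± 0.17, 0.0055). Its levels were as low as those of Crh, between 1.63 and 6.63 CPM in APP/E4 and between 1.13 and 5.05 CPM in APP/E3. Counting error was not taken for Cort. Htr3a, the serotonin receptor gene of Vip and neurogliaform cells, was at 7.10 ± 1.79 CPM in APP/E4 and 8.77 ± 1.90 CPM in APP/E3 (-0.33 ± 0.09, 0.0122). Beside the striatal score Htr3a was called too (-0.34 ± 0.07, 5.5e-04), but not within class 1 (-0.23, 0.236). The medians of this list were 0.02 for genotype, -0.0097 for diet and 0.03 for sex.

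Between sexes, 3 of the 55 were called, all higher in females, where 2.91% of all genes were called higher, among them the 2 given next. The transcription factor gene Maf (0.24 ± 0.06) and the CRH-binding protein gene Crhbp (0.28 ± 0.07) had edgeR adjusted p of 0.0146 and 0.0181. Neither of them was called with read class as a term (0.14 and 0.15). Of 27 other neuropeptides and processing genes, Vgf (0.23 ± 0.07, 0.0455) and Pcsk1n, which encodes the inhibitor proSAAS, were called higher in females. Pcsk1n averaged 201 ± 92.4 CPM in the 29 females, against 130 ± 43.2 CPM in the 23 males (0.61 ± 0.13, 0.0033) and was called with read class as a term (0.76 ± 0.16, 0.0077) and within class 1 (0.77 ± 0.15, 0.0113). In that list Cort alone was called between genotypes, 20 of 27 genes lay below 0, and the median was -0.05. Of 13 tested genes for receptors and binding proteins of the peptides, Sstr1, a somatostatin receptor gene, was called lower in APP/E4 with 36.5 ± 6.41 CPM, against 45.5 ± 11.7 CPM in APP/E3 (-0.30 ± 0.08, 0.0115; within class 1 -0.25, 0.161). Of these 13 genes 11 lay below 0, with a median of -0.08, and Crhbp was the one called between sexes. No gene of the 4 lists was called between diets, and of the 19 striatal markers tested all 19 lay below 0 in HFD (median -0.20) and in females (median -0.30), none called.

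Genes whose levels moved most like each member within groups were found by the correlation of deviations from the 8 group means over 52 libraries, among all genes tested. Gad2 was closest to Abat, the GABA transaminase gene (r = 0.95), Slc32a1 (0.94) and Slc10a4 (0.94), and Slc32a1 to Gad2 (0.94), Ankrd63 (0.92) and Slc10a4 (0.92). Gad1 was closest to Tshz1 (0.92), Pacsin2 (0.90) and Myo16 (0.90). Vip was closest to Cckbr, the cholecystokinin B receptor gene (0.90), Ovol2 (0.90) and Pip5k1c (0.89), and Cck to Rundc3a (0.87), Tspan17 (0.87) and Basp1 (0.86). Pvalb was close to Sema7a (0.91) and Lynx1 (0.87). Likeness was lower for Sst, with Serp2 (0.77), Tmem179 (0.76) and Gpr137 (0.76), for Npy, with Tango2 (0.73), Ube2m (0.69) and Arhgdig (0.68), and for Crh, with Phf21b (0.59), Fosl2 (0.58) and Crhr1, its own receptor gene (0.58). They are given as a description.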

How the data were processed

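RNA from frontal cortex was sequenced after an Illumina mRNA library preparation, from RNA with an integrity number above 8, per the labels' protocols. The authors deposited whole-number read counts per gene for 52 libraries. The same deposited table holds the authors' log2 coefficient and p-value per gene for diet, signed ND minus HFD (r = -0.96 with HFD minus ND over 15692 genes). Per the submitters' processing notes, the tools were Subread, featureCounts, limma and edgeR 3.14.0, on build mm9. The strand setting, annotation and handling of multiply matching reads are not stated in those notes or labels, which leaves counts of overlapping genes uncertain.

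Counts were tested with edgeR 4.0.16 in R 4.3.3: filterByExpr (497 genes removed), TMM, robust quasi-likelihood fit of 8 group means to all 52 libraries, 14 contrasts, Benjamini-Hochberg within each, calls at an adjusted p under 0.05. SE are the log2 difference divided by the root of F. DESeq2 1.42.0 and limma 3.58.1 voom were alternatives. Log2 CPM carry a prior count of 2. Read classes come from Ward clustering of pseudogene reads. Slopes on the scores were fitted beside the group means. Fits were tested on simulated data. Over 146 pairs of libraries within groups, the chi-square per gene was at least 2.95, so none was a duplicate. Floors of 3 counts cover counting error only, and PCR copies are not separate molecules.

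The members and lists were chosen with earlier results of these data known. The genes named were all 9 members, list genes called in an averaged contrast, and the 3 genes most like each member; a few results that this rule would name are not reported here. Genes named outside this rule were chosen after their values were seen. Covariate fits with the olfactory score or read class beside the striatal score, and repeats of slopes and of score-adjusted differences within class 1 or without 1 library, were added after seeing the data.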

Additional observations from a re-analysis of the deposited data

Results flagged for a closer look

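In the 72 sets of 1 gene in 1 group, 9 held a library whose gap to its nearest neighbour was a large share of the group's range by Dixon's 95% criterion. Chance flags about 1 in 20 groups. APP/E4 HFD female 4 was flagged for 3 genes: Gad1 was at 1401 CPM, against 312 to 629 CPM in the other 6 libraries of its group, Sst at 66.0 CPM, against 118 to 141 CPM, and Crh at 10.5 CPM, against 2.91 to 6.01 CPM. Its olfactory score of 1314 CPM was the highest of the 52, and the part of that tissue in these values was not tested. Sst was also high in APP/E4 ND female 4 (182 CPM, against 111 to 141 CPM in the other 6), APP/E3 ND female 1 (177 CPM, against 138 to 148 CPM) and APP/E3 ND male 2 (186 CPM, against 119 to 141 CPM in the other 5). Pvalb was high in APP/E4 ND female 7 (67.6 CPM, against 19.5 to 36.8 CPM) and APP/E3 ND female 4 (81.4 CPM, against 12.8 to 35.1 CPM), both of read class 2. Cck was high in APP/E3 ND female 3 (337 CPM, against 130 to 195 CPM).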

How the results depend on the processing

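The count of called members was 0 of 9 in each of the 14 contrasts and under 11 alternatives, with 2 exceptions. Between genotypes it was 1 (Vip) with the striatal score, with both scores, or with score and read class as covariates. Between sexes it was 1 (Npy) with DESeq2, and without 1 library in turn it was 0 to 1. For the other 13 contrasts it was 0 without any of the 52 libraries. Of 30 single differences followed, 15 were larger than their SE, and direction was compared for these. Reversals occurred in 5 of them and the cause was not tested. Vip between diets was -0.026 in class 1 alone. Between sexes, Gad2 was 0.17 with read class, 0.055 with title style, 0.27 with both, 0.21 in class 1 alone, 0.012 with both scores and 0.053 with score and class. Pvalb was -0.10 with read class, -0.17 with class and title style, -0.10 in class 1 alone and -0.092 with score and class. Vip was -0.10 with read class, -0.16 with class and title style, -0.13 in class 1 alone, -0.0016 with the striatal score, -0.028 with both scores and -0.016 with score and class. Cck was -0.11 with title style, -0.13 with class and title style and -0.016 in class 1 alone. No paired analysis was possible because replicate numbers follow the deposit order. Depth limits Crh most, with a median of 37.5 counts.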

Other observations

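Along the striatal score, other neuropeptide genes split in both directions. Of the 27 genes of that list, 8 rose and 8 fell with the score at an edgeR adjusted p under 0.05, where 10.9% and 10.3% of all genes did. The genes given here were chosen after their values were seen. Penk, the enkephalin precursor gene (1.35 ± 0.07 log2 units per log2 unit of the score), Nts, the neurotensin gene (1.33 ± 0.15), Tac1, the substance P precursor gene (1.19 ± 0.06), Cartpt (0.85 ± 0.12) and Pdyn, the dynorphin precursor gene (0.65 ± 0.06) rose. Of these, Penk was itself listed as a striatal marker, and it was left out of the score only because the neuropeptide list holds it. Its rise along a striatal score is therefore no separate result about neuropeptides. Whether the other genes that rose, here or among the interneuron genes below, did so apart from striatal tissue was not tested. Grp, the gastrin-releasing peptide gene (-0.59 ± 0.08), Bdnf (-0.28 ± 0.05), Cort (-0.27 ± 0.08) and Tac2 (-0.25 ± 0.05) fell. Of 55 other interneuron genes 10 rose and 10 fell. Chat, the acetylcholine synthesis gene (1.88 ± 0.11), Dlx6 (0.67 ± 0.07) and Dlx5 (0.49 ± 0.11) rose, whereas Satb1 (-0.33 ± 0.07), Lamp5 (-0.29 ± 0.07) and Crhbp (-0.25 ± 0.03) fell. Of 13 receptor genes 0 rose and 6 fell, among them Cckbr (-0.28 ± 0.03) and Crhr1 (-0.25 ± 0.04). Among 10 markers of excitatory neurons, 0 rose and 9 fell.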
